A study of Papaver somniferum with 9 samples.

Results

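The set described here holds 150 unigenes of opium poppy (Papaver somniferum) that were low in root and present in both stem and leaf. A unigene qualified when its level was at or under 1 RPKM in all 3 root samples and above 1 RPKM in all 6 stem and leaf samples. RPKM is the number of reads of a unigene per kilobase of its length scaled by the number of mapped reads of the sample. Of 61856 unigenes, 214 (0.346%) met these limits. They were ranked by the lowest of their 6 stem and leaf values, and the first 150 (0.242% of all unigenes) were taken as members. The members were thus chosen by their RPKM in all 9 samples, root as well as stem and leaf, and the contrast of root with the other organs is given below as a description.

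Stem and leaf are the green aerial organs of the plant, in which chloroplasts carry out photosynthesis, while the root grows in the dark and takes up water and minerals. Genes that are low in root and present in both aerial organs can thus include genes of the chloroplast, of light responses and of the shoot surface, such as those for cuticle and stomata. In opium poppy both kinds of organ are also crossed by laticifers, the latex-bearing cells next to the phloem in which benzylisoquinoline alkaloids such as morphine are stored. This is background only, since the expression values give the unigenes by number. These numbers are not RefSeq identifiers, and none of all 61856 unigenes could be matched to the RefSeq gene table of opium poppy (0 matched). The study states that it deposited a functional annotation of its unigenes, which was not used here, so no gene name, role or sequence is given for the members.

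Root, stem and leaf of cultivar B1, which the study describes as the original, wild poppy, were sampled at the filling stage, after the flowers had fallen. Each organ was represented by 3 samples, 9 in all, with no treatment. The root sample was an underground piece, the stem sample a short piece from mid-height and the leaf sample the top leaf. The study calls the samples of an organ independent but does not say whether the 3 organs came from the same plants. A piece of an organ holds many cell types, so fewer cells of a type and less RNA per cell cannot be told apart. The RNA integrity numbers listed by the study were lower in all leaf samples than in any root or stem sample, so leaf and lower RNA integrity cannot be told apart. Without that annotation the organs were not checked against marker genes.

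Samples summed to between 898884 and 1092543 RPKM, and their median over all unigenes ran from 0.680 in stem replicate 3 to 1.27 in root replicate 2. The study lists the clean bases of each library, which were not used here. The deposited values carry no read counts, so the number of reads behind a single value is not known and no counting interval is given. Stem replicate 3 stood apart from the other stem samples. Its scaling factor by median ratios was 0.750, against 1.18 and 1.12 for stem replicates 1 and 2 and 0.849 to 0.944 for the leaf samples.

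Of the limits on presence, that for stem was narrower than that for leaf. The root limit was narrower still. Among the 21658 unigenes above 1 RPKM in all 6 stem and leaf samples, 214 (0.988%) were low in root. Low level in all 3 root samples together with more than 1 RPKM in all 3 leaf samples was found for 1740 unigenes. Only 214 of these (12.3%) were also above 1 RPKM in all 3 stem samples, 937 (53.9%) were at or under it in all 3, and 589 (33.9%) had stem samples on both sides. In the other direction, 245 unigenes were low in root and above 1 RPKM in all 3 stem samples, and 214 of them (87.3%) were above it in all 3 leaf samples too. Recounts with a sample left out were added after the values were seen. Since the rule asks every sample to meet a limit, a recount can only keep or raise a number, and only the size of the rise differs. Without stem replicate 3, 438 of the 1740 unigenes (25.2%) were above 1 RPKM in the remaining stem samples, and 617 unigenes were low in root and above it in stem, of which the 438 were 71.0%. Without root replicate 1 the numbers meeting the limits in stem and in both organs were 381 and 322, and without root replicate 2 they were 370 and 306. Over all 9 recounts the share of leaf-present unigenes that were present in stem ran from 10.8% to 25.2%, and the share of stem-present unigenes that were present in leaf from 71.0% to 90.2%.

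The same limits with another organ as the low one gave other numbers. With leaf low and root and stem above 1 RPKM, 552 unigenes qualified, and with stem low and root and leaf above it, 28. The 28, 214 and 552 unigenes are counts of the files and were not tested against each other. With a sample left out these counts, too, could only stay or rise. The count with leaf low was 874 without stem replicate 3. The small count with stem low was 168 without stem replicate 1, 55 without stem replicate 2, 73 without stem replicate 3, 45 without root replicate 1 and 66 without root replicate 3. Of the 150 members, 96 were still among the first 150 with root replicate 1 left out, and 100 with stem replicate 3 left out.

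**Figure D1:**
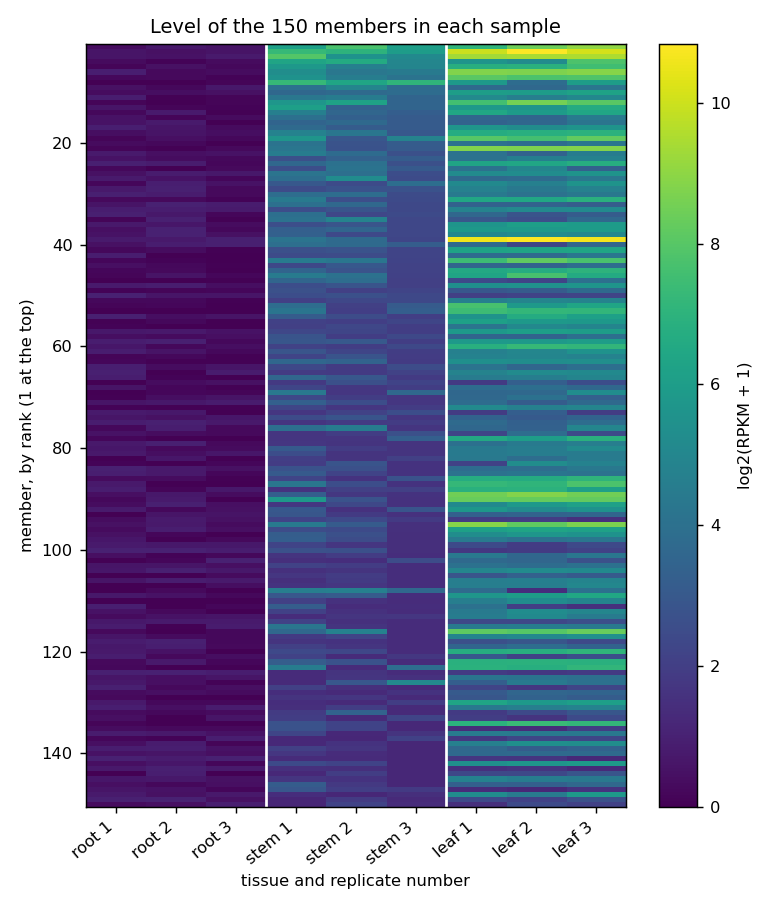
Heat map of the 150 members (rows, by rank from the top) in the 9 samples (columns), with colour giving log2(RPKM + 1). All root columns are dark, stem columns are intermediate and leaf columns are brightest, and stem replicate 3 is darker than the other stem samples.

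Root levels of the members spread over the whole range that the rule allows. The median over members was 0.430 RPKM in root replicate 1, 0.360 in root replicate 2 and 0.220 in root replicate 3. For 85 members the value was above 0.1 RPKM in all 3 root samples, and for 7 it was at or under 0.1 in all 3. In 29 members the highest root sample was at 0.9 RPKM or more, close to the limit, and in 53 it was under 0.5 RPKM.

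Of the 450 root values, 55 were exactly 0, and 38 members had at least 1 of them. Only PB.61635.1 and PB.57533.2, singled out after their values were seen, were listed at 0 in all 3 root samples. PB.61635.1 had 17.8, 3.02 and 8.49 RPKM in stem replicates 1, 2 and 3 and 172, 145 and 137 RPKM in the leaf replicates. PB.57533.2 had 3.18, 1.92 and 1.62 RPKM in stem and 23.7, 37.3 and 28.5 RPKM in leaf. In both, the stem and leaf samples did not overlap, with leaf higher.

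The member with the highest mean in root, PB.24772.1, lay at the limit itself. Its root replicates 1, 2 and 3 had 0.99, 1.0 and 0.84 RPKM, its stem replicates 5.49, 5.21 and 1.72 RPKM and its leaf replicates 2.35, 2.69 and 3.36 RPKM. The step from the highest root sample to the lowest stem sample was small, and its stem and leaf samples overlapped.

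In stem and leaf the members differed widely in level. Averaged over the 3 samples of an organ, their levels ran from 1.46 to 123 RPKM in stem (median 4.30) and from 1.62 to 1637 RPKM in leaf (median 24.3). A mean above 10 RPKM was reached by 38 members in stem and by 112 in leaf, and a mean above 100 RPKM by 4 in stem and 29 in leaf. In leaf, 15 members were among the 1000 highest unigenes of the organ, and in stem none (0 members). The highest member of leaf, PB.2553.48, held place 75 among all unigenes there, and the highest of stem, PB.60473.1, place 1323.

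The members together made up a small share of the RPKM in every organ. For replicates 1, 2 and 3 their summed level was 67.2, 61.2 and 45.0 RPKM in root, 2074, 1568 and 986 RPKM in stem, and 11045, 12565 and 12716 RPKM in leaf. Relative to the sum over all unigenes, root had 0.00620% ± 0.00124, stem 0.150% ± 0.0620 and leaf 1.13% ± 0.0604 (mean ± SD over 3 samples). In summed RPKM the limits alone place every root sample below every stem and leaf sample. Stem and leaf, which the limits did not set against each other, did not overlap. Relative to its mean the SD was smallest in leaf. The sum rested on a minority of members: the 10 highest gave 51.4% of it in leaf and 45.2% in stem.

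**Figure D2:**
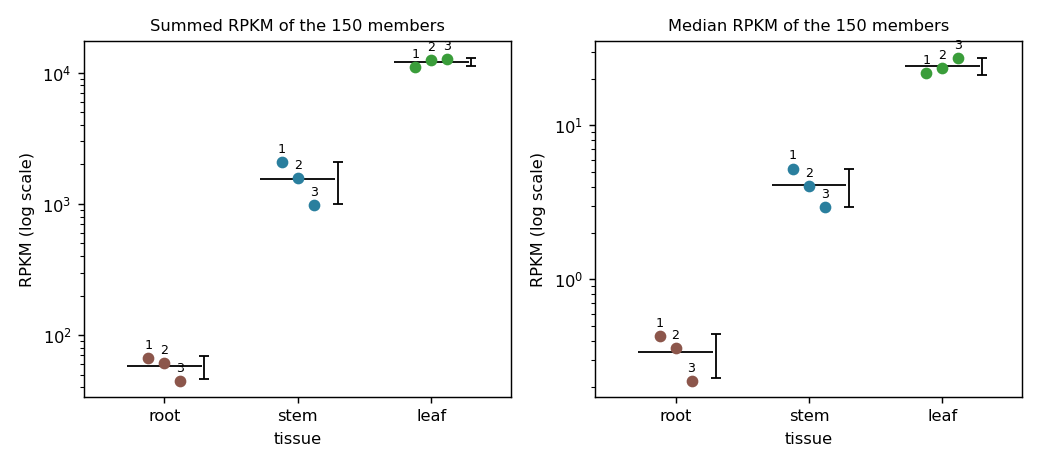
Summed RPKM (left) and median RPKM (right) of the 150 members in each sample, on log axes, with the replicate number above each point, the mean as a horizontal line and the SD as a bar. In stem the sum was lowest in replicate 3, at 986 RPKM, and highest in replicate 1, at 2074 RPKM.

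The rank of a member was set almost always by a stem sample. The lowest of the 6 stem and leaf values lay in stem for 143 members and in leaf for 7. It lay in stem replicate 3 for 94 members, in stem replicate 2 for 32 and in stem replicate 1 for 17. Among the stem samples alone, replicate 3 was the lowest for 100 members (66.7%). This was also the most frequent place over all 21658 unigenes above 1 RPKM in the 6 samples, where stem replicate 3 was the lowest stem sample of 61.3%. The low values of stem replicate 3 were therefore shared by the members and by other unigenes of these organs.

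The first ranks show how the members differ in pattern. PB.47167.29, at rank 1, gave 0.27, 0.62 and 0.48 RPKM for root replicates 1, 2 and 3. In stem it had 71.1, 213 and 67.2 RPKM, and in leaf 135, 351 and 518 RPKM. Stem replicate 2 was above leaf replicate 1, so the organs overlapped, and the difference was not called (log2 difference -1.52, standard error 0.55, adjusted p = 0.115 from limma). This value passed the threshold without stem replicate 2 (-2.06, adjusted p = 0.0384) and without leaf replicate 1 (-2.07, adjusted p = 0.0373).

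PB.57540.1, at rank 2, had 154, 127 and 62.6 RPKM in stem replicates 1, 2 and 3 and 993, 1826 and 1119 RPKM in leaf, with 0.39 to 0.52 RPKM in root. It was the only member above 100 RPKM on average in stem and above 1000 RPKM on average in leaf. PB.58402.3, at rank 3, had 241, 44.8 and 33.9 RPKM in stem and 645, 707 and 715 RPKM in leaf, so a nearly even level in leaf stood beside stem samples of which replicate 1 was far above the others. Both were lower in stem than in leaf, with log2 differences of -3.55 (standard error 0.35, adjusted p = 0.000228 from limma) and -3.24 (standard error 0.61, adjusted p = 0.00685).

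PB.7366.6, at rank 4, had 78.5, 98.2 and 30.2 RPKM in stem and 47.8, 36.8 and 221 RPKM in leaf, and its organs overlapped. PB.59477.1, at rank 5, had 53.5, 24.5 and 29.6 RPKM in stem and 109, 118 and 183 RPKM in leaf, with every leaf sample above every stem sample. PB.54355.5 and PB.42507.2, at ranks 6 and 7, showed the same separation. PB.54355.5 had 38.4, 18.9 and 20.8 RPKM in stem against 433, 424 and 471 RPKM in leaf, and PB.42507.2 had 44.9, 23.4 and 16.6 RPKM in stem against 265, 214 and 233 RPKM in leaf. In these 2 members stem replicate 1 was the highest stem sample.

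PB.60473.1, at rank 8, had the opposite order. It was listed at 0 in root replicates 1 and 2 and at 0.10 RPKM in root replicate 3, had 150, 82.9 and 137 RPKM in stem and 54.8, 13.3 and 64.1 RPKM in leaf. Every stem sample was above every leaf sample, and it had the highest stem mean of all members, 123 RPKM ± 35.6 (SD, n = 3). Its log2 difference of 1.69 (standard error 0.53) was not called at an adjusted p of 0.0672 from limma. With the replicate number as a block it was called, at an adjusted p of 0.0275.

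**Figure D3:**
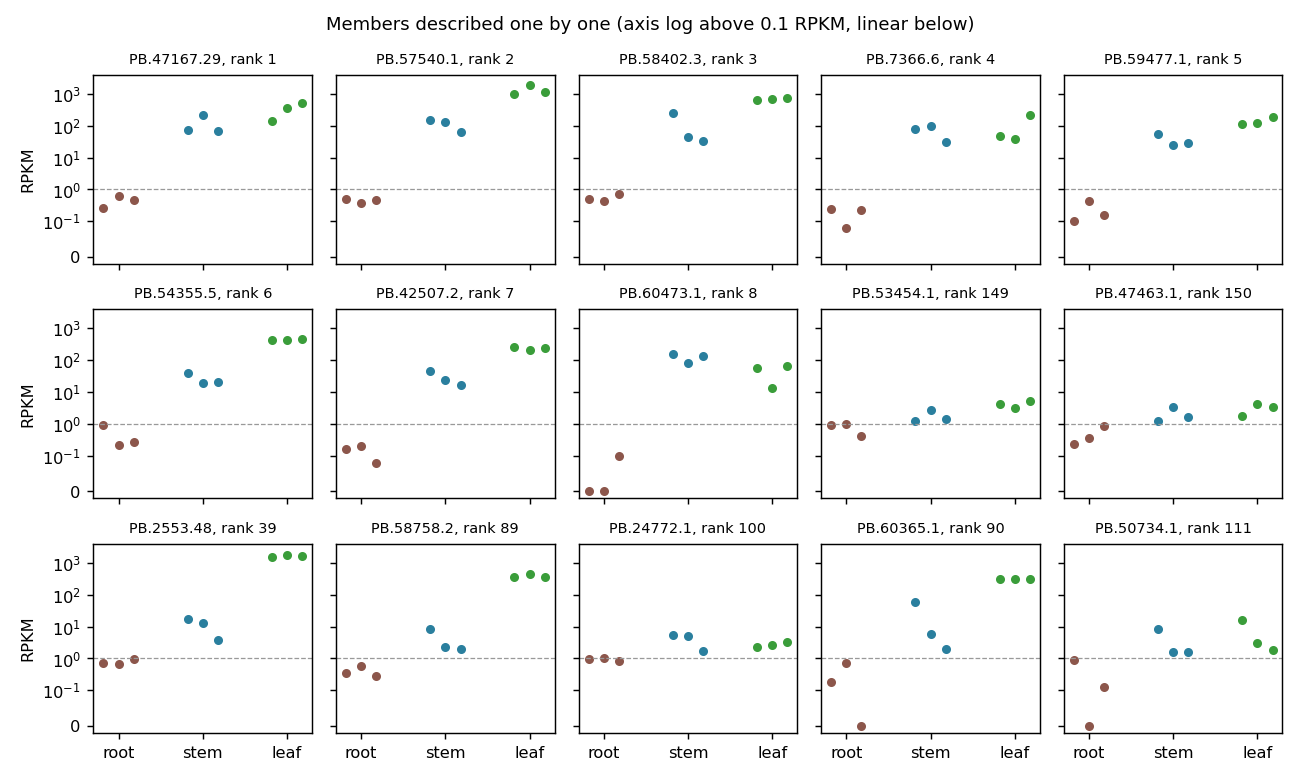
RPKM of 15 members in the 3 samples of root, stem and leaf, ordered within an organ by replicate number from left to right, with the dashed line at 1 RPKM. The vertical axis is logarithmic above 0.1 RPKM and linear below. In PB.2553.48 the leaf samples lie between 1547 and 1783 RPKM and the stem samples between 3.74 and 16.9 RPKM, while in PB.60473.1 the stem samples lie above the leaf samples.

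The end of the ranking lay close to the limit of 1 RPKM. PB.53454.1 and PB.47463.1, the last members, had lowest values of 1.27 and 1.26 RPKM. The root levels of PB.53454.1 were 0.92, 0.99 and 0.42 RPKM for replicates 1, 2 and 3, followed by 1.27, 2.74 and 1.46 RPKM in stem and 4.32, 3.24 and 5.40 RPKM in leaf. PB.47463.1 had 0.24, 0.37 and 0.87 RPKM in root, 1.26, 3.47 and 1.62 RPKM in stem and 1.76, 4.35 and 3.32 RPKM in leaf. The first unigenes outside, PB.61210.1 and PB.8369.2, had lowest values of 1.25 and 1.24 RPKM. PB.8369.2 had 0, 0 and 0.07 RPKM in root and 8.51, 9.73 and 12.5 RPKM in leaf, lower in root and higher in leaf than both last members, so place at the limit follows the lowest value alone.

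The comparison of stem with leaf was not part of the limits, although a ranking by the lowest value favours unigenes that are high in both organs. It was tested with limma on log2(RPKM + 1) over 50225 unigenes, and a unigene was called at a fold change of at least 2 and an adjusted p under 0.05. The spread of a unigene was estimated from all 9 samples, root included. In the members the rule kept the root values at or under 1 RPKM, so their standard errors and p-values rest in part on that choice. All 150 members entered the test, which their stem and leaf values alone ensured. Of these, 100 (66.7%) were called lower in stem than in leaf, none (0 members) was called higher, and 50 were not called. Over all tested unigenes, 6.77% were called lower in stem, 4.30% higher and 11.1% in either direction. At an unadjusted p under 0.05 from limma, 113 members were lower in stem and 2 were higher, PB.60473.1 and PB.27045.3. The share of all tested unigenes at that unadjusted threshold was not counted, so these 2 counts have no background beside them.

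The members were also set beside unigenes that met the same limit in the aerial organs, without matching on level. Among the 21658 unigenes above 1 RPKM in all 6 stem and leaf samples, whatever their root level, 8.45% were called lower in stem and 7.08% higher. Among the 20528 of these that were above 1 RPKM in all 3 root samples as well, 7.09% were called lower in stem and 7.45% higher. The median log2 difference of stem minus leaf was -2.16 over the members (quartiles -3.29 and -0.86), against 0.05 over all tested unigenes and 0.18 over those above 1 RPKM in all 6 samples. Adding 1 RPKM before taking logs makes differences between low values smaller. Since the members were chosen with earlier results known, these are counts set side by side, with no test of the set.

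**Figure D4:**
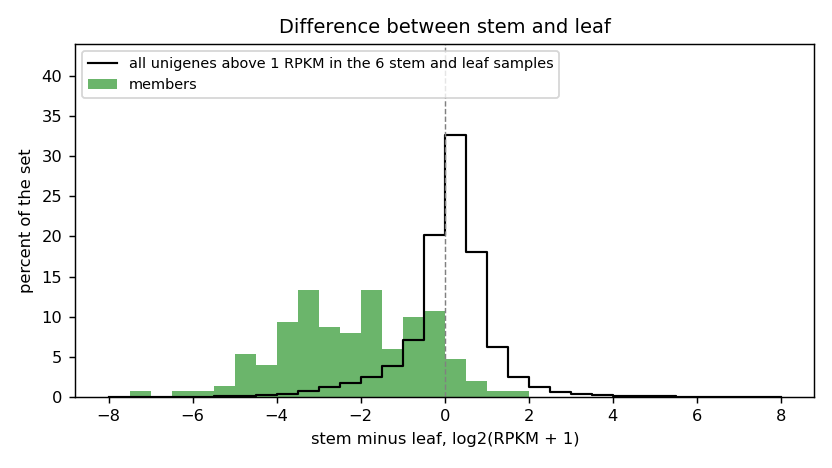
Percent of the 150 members (bars) and of the 21658 unigenes above 1 RPKM in all 6 stem and leaf samples (line) by the fitted difference of stem minus leaf on the log2(RPKM + 1) scale, in bins of 0.5. The members lie mostly left of 0, with a median of -2.16, while the line peaks just right of 0.

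Non-overlap of the replicates gave a similar picture. In 110 members every leaf sample was above every stem sample (73.3%, against 15.4% of all tested unigenes, 15.5% of those above 1 RPKM in all 6 samples and 13.6% of those above it in all 9). In 3 members every stem sample was above every leaf sample (2.0%, against 16.7%, 23.9% and 25.1% of the same 3 sets), and in 37 the organs overlapped. The 100 called members all belonged to the 110. The 64 unigenes that met the limits but ranked below the members were alike in this respect, with leaf above stem and no overlap in 45 (70.3%).

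As a ratio of means, leaf was higher than stem in 136 of the 150 members. The ratio of leaf to stem had a median of 5.36 (quartiles 1.96 and 12.3) and ran from 0.357 to 148. It was at least 10 in 44 members (29.3%), against 1.12% of unigenes above 1 RPKM in all 6 samples, and all 44 were called. For the 64 unigenes ranked below the members the median was 3.20, and the ratio was at least 10 in 6 (9.38%). It lay between 0.5 and 2 in 34 members and was at most 0.5 in 4. By rank in groups of 30, its median was 3.58 for the first 30 members, then 8.57, 5.63, 8.14 and 3.33, so no steady trend with rank was seen.

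**Figure D5:**
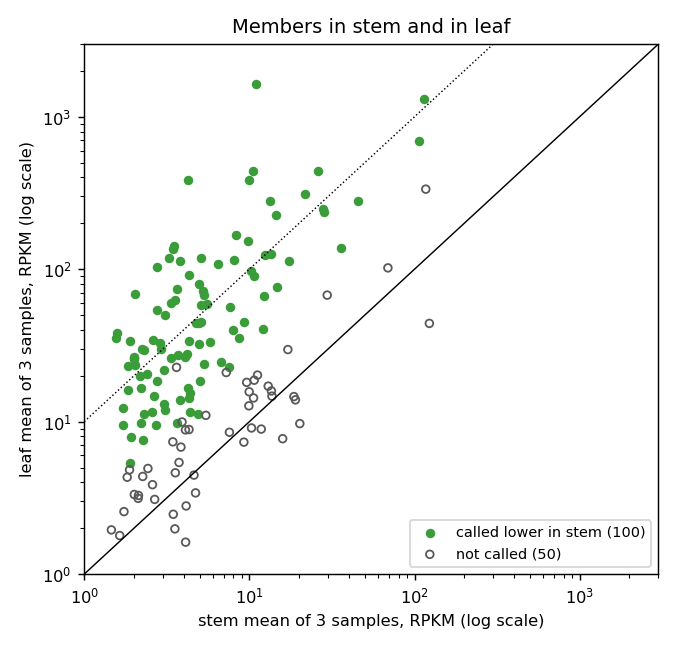
Mean RPKM in leaf against mean RPKM in stem for the 150 members, on log axes, each mean over 3 samples. The solid line marks equal levels and the dotted line a leaf level 10 times that of stem. The 100 members called lower in stem (filled) lie above the solid line. The 50 not called (open) lie on both sides of it, more of them above than below.

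The largest differences were those of PB.2553.48 and PB.58758.2, the only members with a leaf mean at least 50 times the stem mean. PB.2553.48, at rank 39, reached 0.73, 0.66 and 0.94 RPKM in the root samples (replicates 1, 2 and 3), 16.9, 12.5 and 3.74 RPKM in stem and 1547, 1783 and 1580 RPKM in leaf. Its leaf mean of 1637 RPKM ± 128 (SD, n = 3) was the highest of all members and 13.5% of their summed leaf level. The log2 difference was -7.29 (standard error 0.43, adjusted p = 1.82e-05 from limma).

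PB.58758.2, at rank 89, had 0.36, 0.60 and 0.28 RPKM in root, 8.34, 2.34 and 1.97 RPKM in stem and 354, 449 and 357 RPKM in leaf. Its log2 difference was -6.41 (standard error 0.40, adjusted p = 2.43e-05 from limma). In both members the stem level was nearer to the root level than to the leaf level on the log scale, and stem replicate 1 was the highest stem sample.

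No member passed the threshold for a higher level in stem, apart from PB.60473.1 with the replicate block and PB.56242.1, named after its values were seen, with sample weights. Besides PB.60473.1, the stem and leaf samples did not overlap, with stem higher, in PB.52138.1 and PB.27045.3, which were singled out after their values were seen. PB.52138.1 had 4.82, 5.30 and 4.03 RPKM in stem against 3.13, 3.47 and 3.64 RPKM in leaf (log2 difference 0.37, adjusted p = 0.389 from limma). PB.27045.3 had 6.77, 3.0 and 2.57 RPKM in stem against 1.53, 1.28 and 2.04 RPKM in leaf (log2 difference 0.89, adjusted p = 0.116). Of the 50 members that were not called, 38 had a fitted value below 0 and 12 above it.

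The members varied more between the stem samples than between the leaf samples. The coefficient of variation over the 3 samples of an organ had a median of 43.5% in stem (quartiles 27.8% and 62.6%) and of 19.4% in leaf (quartiles 12.4% and 29.9%), and it was larger in stem for 119 members (79.3%). Over the unigenes above 1 RPKM in all 6 samples the medians were 35.0% and 14.9%, and it was larger in stem for 83.3%. The larger spread in stem was thus common to both sets.

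Within stem, replicate 1 was the highest sample for 79 members and replicate 3 for 23. The median over members was 5.25 RPKM in stem replicate 1, 4.02 in replicate 2 and 2.96 in replicate 3. In leaf the medians were 21.8, 23.6 and 27.6 RPKM for replicates 1, 2 and 3, all above those of stem. The widest spread in stem was that of PB.60365.1, at rank 90, with 57.1, 5.79 and 1.95 RPKM in stem replicates 1, 2 and 3 (coefficient of variation 142%) beside 316, 307 and 303 RPKM in leaf (2.16%). Its root replicates had 0.18, 0.72 and 0 RPKM.

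The widest spread in leaf was that of PB.50734.1, at rank 111. It had 15.6, 3.04 and 1.81 RPKM in leaf replicates 1, 2 and 3 (coefficient of variation 112%) and 8.29, 1.61 and 1.65 RPKM in stem. In root it had 0.87, 0 and 0.13 RPKM. Replicate 1 was the highest in all 3 organs of this member, and its stem and leaf samples overlapped.

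Across the 150 members, levels in stem and leaf were related only in part. Pearson's correlation of the organ means on the log2(RPKM + 1) scale was 0.55 and Spearman's 0.47. The members share the same 9 libraries and a floor of 1 RPKM in both organs, so these values are descriptions across unigenes. The corresponding values were -0.22 and -0.23 for root with stem, and -0.24 and -0.24 for root with leaf, within a root range cut at 1 RPKM.

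For the first 150 unigenes of the set with leaf as the low organ, ranked in the same way, the organs in which they were present were less apart. Root and stem samples overlapped in 111 of these (74.0%), every root sample was above every stem sample in 34, and every stem sample above every root sample in 5. The median ratio of root to stem means was 1.45. The difference between these numbers and those of the members was not tested. How often root and stem samples overlapped over all unigenes was not counted. These numbers can therefore not be told apart from a general likeness of root and stem.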

How the data were processed

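Of the study's libraries, 9 are analysed here, 3 each of root, stem and leaf. Per the labels and the study's methods, the authors removed low-quality reads, used HISAT2 2.05 to map clean paired-end reads onto unigenes from their own long-read transcriptome, estimated expression with RSEM and deposited it as RPKM, rounded to 2 decimals. The methods call the unit FPKM. Near-identical unigenes share reads that RSEM has to divide, which makes their values uncertain. No genome build is involved. All 9 columns were used, assigned by the sample number in the labels.

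Members were found by the limits and the ranking given above. The members and lists were chosen with earlier results of these data known. Named members are those at ranks 1 to 8, the last 2 inside and the first 2 outside, the 2 largest called differences without overlap in each direction of stem against leaf (none was called higher in stem), and those with the highest root mean and the largest coefficient of variation in stem and in leaf.

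For the comparison of stem and leaf, log2(RPKM + 1) values were fitted by limma 3.58.1 (R 4.3.3) for unigenes above 0.1 RPKM in at least 3 samples, with all 9 samples, an intensity trend and Benjamini-Hochberg adjustment. The procedure was also run on simulated data in which root was not held low, unlike in the members, so that run is no check on their p-values. P-values set the difference of stem and leaf against the spread between samples of an organ, pooled over the 3 organs. Limma draws this spread toward a trend over all unigenes tested. Alternatives were other pseudocounts, filters, scalings, weights, a replicate block, fewer samples and other limits. Other steps used Python 3.11.15, numpy 2.4.6 and pandas 2.3.3.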

Additional observations from a re-analysis of the deposited data

How the results depend on the processing

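The number of members called lower in stem was 100 and ran from 91 with a pseudocount of 0.1 to 107 with median-ratio scaling, and leaving out each of the 9 samples in turn gave 93 to 104. With only the 6 stem and leaf samples, where root values do not enter the spread, 97 were called. In that fit of fewer samples the adjusted p from limma was 0.000413 for PB.2553.48, against 1.82e-05. For PB.58402.3 it was 0.0247, against 0.00685. Under all 18 alternative fits 87 members were called. The median log2 difference over the members, -2.16, ran from -2.42 to -2.16 over these settings and from -2.40 to -2.04 with a sample left out. The number called higher in stem was 0, but 1 with sample weights (PB.56242.1, named after its values were seen) and 1 with the replicate block (PB.60473.1, adjusted p = 0.0275 from limma). With the replicate block 99 members were called in all. Over all tested unigenes, same-numbered stem and leaf samples had correlations of 0.333, 0.128 and -0.0297 between their deviations from the organ means. A limit of 0.1 was passed by replicates 1 and 2 and not by replicate 3. Whether the numbers pair stem with leaf samples is thus not settled, and the main fit used no replicate block. Over all tested unigenes, stem replicates 2 and 3 each correlated better with a leaf sample of another number. For root and stem the same correlations over all tested unigenes were 0.605, 0.573 and 0.664, above every pair with different numbers. Over the members alone they were 0.0874, 0.162 and 0.157. What ties the same-numbered root and stem samples was not tested, and neither was the difference between root and stem. Over all unigenes 5557 were called in stem against leaf, from 4265 to 6667 with a sample left out, and 8524 with sample weights, which were lowest for stem replicate 3 (0.224) and highest for stem replicate 2 (4.17).

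Values that were not called changed sign in some settings. PB.7366.6, at -0.24, was 0.22 with sample weights, 0.26 without stem replicate 3 and 0.55 without leaf replicate 3, in a range from -0.73 to 0.55 with a sample left out. PB.47463.1, at -0.42, was 0.04 with sample weights, and PB.50734.1, at -0.52, was 0.25 without leaf replicate 1, in a range from -1.12 to 0.25. The cause was not tested. PB.53454.1, at -0.93, passed the threshold with median-ratio scaling (-1.03).

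Membership depended on the limits: 53 members were kept with limits of 0.5 RPKM and 63 with limits of 2 RPKM, and from 96 to 149 with a sample left out. The number of unigenes meeting the limits depended on scaling. It was 214 as deposited, 303 with median-ratio scaling first and 340 with quantile normalization first, and 123 members were kept in each of these 2 settings. The summed leaf level of 12109 RPKM was 13325 with median-ratio scaling and from 11805 to 12641 with a leaf sample left out; that of stem, 1543 RPKM, ran from 1277 to 1821 with a stem sample left out. The number of reads behind a value is not known, which limits what can be said of values under 1 RPKM.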
